A study of Mus musculus with 2 samples.

Results

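Regions of intermediate CpG content that carried trimethylation of lysine 4 of histone H3 (H3K4me3) in both of a pair of fibroblast lines numbered 2242 of 11797 regions found on chromosomes 1 to 19 when the marked stretches of both libraries were merged. A marked stretch joined 200 bp windows with at least 6 deposited reads across gaps of up to 1 kb and held at least 20 reads. A merged region was kept when each library had a stretch in it, its width was under 4000 bp, and its observed over expected CpG (CpG o/e) lay from 0.4 to under 0.6. CpG o/e is the number of CG dinucleotides per base step over the number that the GC content predicts, and it was read from the bases of the reads themselves. The regions were thus chosen by the deposited read counts in both lines, their width and their CpG content, and these values are not findings about them.

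The lines were mouse embryonic fibroblasts, 1 with Lsh (WT, Lsh+/+) and 1 without it (Lsh_KO, Lsh-/-), each with 1 library and no other treatment given in the labels. Lsh is the product of the Hells gene, an SNF2-type ATPase that remodels chromatin. From 20000000 cells per line, chromatin cut by micrococcal nuclease was precipitated with an antibody to H3K4me3, amplified for 20 cycles and selected at 200 to 400 bp. The labels do not say how either line was made or from how many embryos, so a difference between the lines and an effect of the genotype cannot be told apart, and no test of the genotype was possible.

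Most vertebrate promoters fall into CpG islands, where CpG is kept near the number that base composition predicts, or into CpG-poor promoters, where much of it has been lost. Methylated cytosine in CpG mutates readily to thymine, which leaves TG and, on the other strand, CA in its place. Intermediate promoters lie between these kinds, and in somatic cells they include promoters that gain DNA methylation when silent. H3K4me3 is laid down on nucleosomes beside active or poised start sites by the SET1 and MLL enzyme complexes, whose partner proteins bind unmethylated CpG. Lsh is needed for normal DNA methylation.

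The promoters below are shown because the regions that differed most between the lines, or held the most reads, were matched to them. Each is the 250 bases before the start site from RefSeq on GRCm38.p6, read 5′ to 3′ on the gene's strand, with every CpG in capitals. A gene was matched to a region when at least 2 distinct 25-base reads in it matched the promoter exactly at the same implied start. The first 3 lines belong to regions with more reads in Lsh_KO:
Itgb8: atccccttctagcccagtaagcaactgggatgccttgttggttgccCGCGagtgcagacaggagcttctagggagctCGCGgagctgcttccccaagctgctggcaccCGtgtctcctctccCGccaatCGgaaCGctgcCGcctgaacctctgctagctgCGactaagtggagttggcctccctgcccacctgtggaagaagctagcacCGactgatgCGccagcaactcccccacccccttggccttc
Igfbp2: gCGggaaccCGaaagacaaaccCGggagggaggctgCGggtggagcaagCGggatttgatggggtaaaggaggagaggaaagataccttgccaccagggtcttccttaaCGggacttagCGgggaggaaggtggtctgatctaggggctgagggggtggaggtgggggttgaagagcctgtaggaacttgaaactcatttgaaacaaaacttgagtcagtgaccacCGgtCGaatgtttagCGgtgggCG
Efemp1: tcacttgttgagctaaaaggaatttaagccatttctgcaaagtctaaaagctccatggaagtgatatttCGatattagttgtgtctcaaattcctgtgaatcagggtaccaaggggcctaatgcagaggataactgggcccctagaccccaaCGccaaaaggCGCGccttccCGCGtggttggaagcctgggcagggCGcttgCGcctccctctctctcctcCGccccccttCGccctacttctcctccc
The next 3 belong to regions with fewer reads in Lsh_KO:
Megf6: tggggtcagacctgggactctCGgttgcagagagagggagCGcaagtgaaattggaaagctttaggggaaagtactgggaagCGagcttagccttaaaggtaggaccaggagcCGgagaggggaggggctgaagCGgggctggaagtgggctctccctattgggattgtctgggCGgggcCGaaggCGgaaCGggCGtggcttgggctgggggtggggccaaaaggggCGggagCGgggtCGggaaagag
Slit2: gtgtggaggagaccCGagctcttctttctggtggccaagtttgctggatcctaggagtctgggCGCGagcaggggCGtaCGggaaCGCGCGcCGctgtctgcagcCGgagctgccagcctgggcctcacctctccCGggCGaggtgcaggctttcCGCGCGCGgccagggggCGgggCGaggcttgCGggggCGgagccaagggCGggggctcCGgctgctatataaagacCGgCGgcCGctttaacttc
Tap1: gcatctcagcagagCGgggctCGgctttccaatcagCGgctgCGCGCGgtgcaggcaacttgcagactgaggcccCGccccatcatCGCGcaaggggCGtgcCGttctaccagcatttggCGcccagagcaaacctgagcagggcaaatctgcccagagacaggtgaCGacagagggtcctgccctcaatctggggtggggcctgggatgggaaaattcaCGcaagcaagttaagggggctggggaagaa
The last 2 belong to the named regions with the most reads, which had similar levels in both lines:
Vim: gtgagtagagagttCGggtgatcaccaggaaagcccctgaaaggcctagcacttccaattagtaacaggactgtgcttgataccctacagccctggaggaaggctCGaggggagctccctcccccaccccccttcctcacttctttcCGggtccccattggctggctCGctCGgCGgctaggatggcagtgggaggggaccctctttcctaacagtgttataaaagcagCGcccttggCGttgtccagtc
Hjurp: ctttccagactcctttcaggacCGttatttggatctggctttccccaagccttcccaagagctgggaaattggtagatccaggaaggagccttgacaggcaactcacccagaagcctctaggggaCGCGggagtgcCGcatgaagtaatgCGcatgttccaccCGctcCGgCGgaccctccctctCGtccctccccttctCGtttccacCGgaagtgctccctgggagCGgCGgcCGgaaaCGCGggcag

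These stretches lie at chr12:119238277-119238526 (minus strand) for Itgb8, chr1:72825137-72825386 (plus) for Igfbp2 and chr11:28852955-28853204 (plus) for Efemp1. Megf6 lies at chr4:154170463-154170712 (plus), Slit2 at chr5:47982905-47983154 (plus) and Tap1 at chr17:34187306-34187555 (plus). Vim lies at chr2:13574061-13574310 (plus) and Hjurp at chr1:88277580-88277829 (minus). All of these are GRCm38.p6 positions. Every other position below is on mm8, the build of the deposited reads, and the builds were not converted. CpGs numbered 12 in Itgb8, 11 in Igfbp2, 10 in Efemp1, 13 in Megf6, 25 in Slit2, 14 in Tap1, 8 in Vim and 16 in Hjurp. The CpG o/e of these 250 bases ran from 0.377 in Vim to 0.829 in Slit2, so a promoter could lie outside the range of its whole region: the Slit2 region as a whole had 0.560. In Vim and Slit2 the word TATAAA is also present, and the Igfbp2 stretch holds TGACTCA on the lower strand, printed as tgagtca.

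The regions were mostly narrow and moderately marked. Their median width was 1600 bp (quartiles 1000 to 2000) and their median GC content was 57.7%. Each combination of position and strand counted as 1 read, placed 75 bp downstream of its start. In WT a region held a median of 50 such distinct reads (quartiles 33 to 73, range 7 to 234), and in Lsh_KO a median of 77 (51 to 109, range 9 to 334). In all, they held 127093 WT reads, 5.32% of that library's distinct reads on these chromosomes, and 189262 Lsh_KO reads, 7.02%.

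Their read density was close to that of the other shared regions under 4000 bp. The median was 34.0 WT and 50.6 Lsh_KO reads per kb here. It was 33.8 and 50 in the 4783 regions of CpG o/e 0.6 to under 0.8, 30.3 and 45.0 in the 2331 regions of 0.8 or more, and 29.2 and 42.0 in the 551 regions under 0.4. Within the intermediate range, in steps of 0.05 from 0.40, the WT medians were 34.4, 33.0, 34.3 and 34.3 reads per kb, with no order, and the Lsh_KO medians were 47.0, 47.8, 51.4 and 51.7, rising with CpG content.

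The limits of CpG o/e cut through a continuous range. Just inside the lower limit, a region of 0.4008 at 104811201 to 104812400 on chromosome 5 had 29 reads in WT and 36 in Lsh_KO, and just outside it a region of 0.3997 at 115621001 to 115622400 on chromosome 4 held 45 and 66. Just inside the upper limit, a region of 0.59997 at 124699601 to 124701800 on chromosome 5 held 59 and 119 reads, and a region of 0.600004 at 181530201 to 181531600 on chromosome 2, just outside, held 41 and 78. When CpG o/e was read from the bases of 1 library alone, 1749 of the 2242 regions (78.0%) were in the range again with WT reads and 1959 (87.4%) with Lsh_KO reads. A further 125 shared regions of this CpG content were 4000 bp or wider and are not described.

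Reads named genes for a majority of the regions. RefSeq promoters on chromosomes other than 18 were used, and 1348 of 2191 regions on those chromosomes (61.5%) matched at least 1 of 1599 genes. Of these genes 1412 were protein coding and 187 were long noncoding RNAs. The share matched was 66.8% at CpG o/e 0.6 to under 0.8, 64.98% at 0.8 or more and 44.7% under 0.4. Of all 9292 promoters matched in any region, 9290 lay on the chromosome that RefSeq gives. The promoter table is not complete, and a start site with few reads cannot be matched, so a region without a match is only unnamed. Promoters on both strands were matched, in any orientation to each other, in 249 of the 1348 named regions (18.5%), against 10.8% of named regions under 0.4 and 21.5% at 0.6 to under 0.8.

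The promoters matched in these regions were richer in CpG than the regions as a whole. Over the 300 bases from 250 before to 50 after the start, the 1842 promoters matched in these regions had a median CpG o/e of 0.724, whereas the regions as a whole had 0.532. Of these promoters 71.6% had 0.6 or more, 20.9% had 0.4 to under 0.6 and 7.55% had less. The median over all 32851 promoters in the table was 0.376. Promoter values came from RefSeq sequence, and region values from the reads of all regions, named or not, chosen to lie under 0.6. The other classes had the same order. Promoters had 0.459 and regions 0.323 under 0.4, 0.815 and 0.703 at 0.6 to under 0.8, and 0.896 and 0.866 at 0.8 or more.

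The bases of the reads showed the other side of CpG depletion. The o/e of TG and CA together was 1.13 in these regions, between 1.22 in shared regions under 0.4 and 1.06 in those of 0.6 to under 0.8. It was 0.984 at 0.8 or more. GpC, which holds the same bases in the other order, had an o/e of 0.930 here and ran from 0.913 to 1.04 across the classes. CG stood below the number predicted from base composition in all 4 classes, TG and CA above it in all but the class of 0.8 or more, and the o/e of GpC rose with that of CG over a narrower range. These values are pooled over reads and share base composition with the CpG o/e that chose the regions.

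Short DNA words bound by general promoter factors were searched on both strands of the 300-base promoters, with matches of different words allowed to overlap. GGGCGG, the core of the Sp1 site, was present in 68.2% of the 1842 promoters of these regions and in 35.7% of all promoters in the table. CCGGAAGT, an ETS family word, was present in 10.6% against 3.89%, and TGACGTCA, the cyclic AMP response element, in 3.15% against 1.79%. CACGTG, the E-box of Myc and USF, was found in 10.3% against 7.15%, and GCCATNTTG, the YY1 word, in 4.29% against 2.51%. CCAAT, the NF-Y word, was equally frequent, at 37.6% and 37.4%. TATAAA, the TATA box word, was in 4.89% against 13.6%, and TGACTCA, the AP-1 word, in 2.93% against 5.202%. The Sp1, ETS, cyclic AMP and E-box words contain a CG, so their share is not independent of CpG content. It did not simply rise with it. From under 0.4 to 0.8 or more, CCGGAAGT was in 2.67%, 10.6%, 10.3% and 8.46% of the promoters of the 4 classes. GCCATNTTG, which has no CG, was in 2.33%, 4.29%, 4.68% and 6.20%.

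Within the reads of whole regions, 2 of these words ran in opposite directions across the classes. TGACTCA occurred 0.111 times per 1000 positions in these regions, against 0.165 under 0.4, 0.0966 at 0.6 to under 0.8 and 0.0771 at 0.8 or more. GGGCGG occurred 1.399 times per 1000 positions, against 0.756, 1.94 and 2.45. The promoters of the class of 0.6 to under 0.8 held most of these words about as often, with GGGCGG in 71.2%, CCGGAAGT in 10.3%, CACGTG in 10.2%, TATAAA in 4.68% and TGACTCA in 2.69%, so the shares do not set the intermediate regions apart from it. A word match is a description of the sequence, and no binding was measured.

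Around matched start sites the mark had the layout of nucleosomes on both sides of a gap. The profile took the 1099 start sites in these regions that had no matched start on the other strand. In WT, reads peaked at 73.3 per kb per start site 137 bp downstream, dropped to a low of 9.61 at 63 bp upstream and had a lower peak of 30.5 at 213 bp upstream. In Lsh_KO the same peaks stood at 97.5 and 47.6 reads per kb, and the low was 15.5 at 38 bp upstream. The positions of both peaks were therefore the same in the lines to the 25 bp step of the profile.

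**Figure D1:**
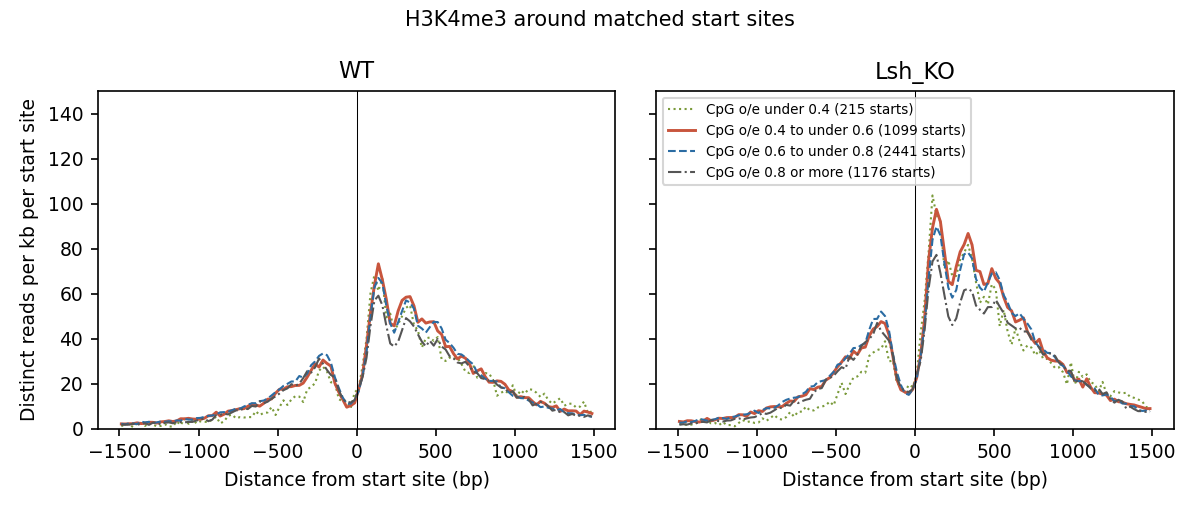
Distinct reads per kb per start site (vertical axis) against distance from the matched start site in bp (horizontal axis, downstream to the right) in WT and Lsh_KO. Lines are the 4 classes of CpG o/e; the intermediate class (thick line, 1099 start sites) peaks 137 bp downstream in both libraries, at 73.3 and 97.5 reads per kb.

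The downstream side held more of the mark than the upstream side. The 1500 bp downstream of these start sites held 2.72 times the reads of the 1500 bp upstream in WT and 2.47 times in Lsh_KO. That asymmetry was 3.58 in WT and 3.53 in Lsh_KO for regions under 0.4, and 2.44 and 2.27 for those of 0.6 to under 0.8. It was 2.44 and 2.26 for regions of 0.8 or more, so within each library it was lower in the classes above 0.6 than in the intermediate class. Only reads that match the promoter can place a start site, and those reads lie within the 300 bases searched.

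Between the lines, ratios of Lsh_KO to WT reads were divided by 1.47, the median ratio over all 10257 shared regions. Total distinct reads differed by 1.13 times only, so this division removes a shift of 0.38 on the log2 scale that the median shared region had in favour of Lsh_KO. No input library or spike-in was used here, and whether that shift came from the precipitation was not tested. A region was called higher or lower in Lsh_KO under 3 conditions: a divided ratio of 2-fold or more, a 95% interval (exact conditional, Clopper-Pearson) that left out 1, and 20 or more reads over both libraries. The intervals cover counting error only, and amplified reads are not independent molecules. In a bulk library, fewer cells with the mark and less of it per cell cannot be told apart.

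Nearly all intermediate regions had similar levels in both lines on this scale. Each had to hold a marked stretch in both libraries. They are also part of the shared regions whose median ratio was set to 1. Similar levels and a median near 0 therefore follow in part from the choice of regions and the scaling. The median log2 ratio was 0.01, the central 90% ran from -0.65 to 0.68, and 97.1% of the regions lay within 2-fold. Summed over regions, Lsh_KO held 1.01 times (interval 1.003 to 1.018) the WT reads after the division. Pearson's r of log2 read counts between the libraries was 0.870 over the 2242 regions, which share width and sequence between the libraries. A ratio above the shared median was found in 1152 regions (51.4%). When scaled by total distinct reads instead, the median log2 ratio was 0.40 and 86.8% of the regions were above 0.

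**Figure D2:**
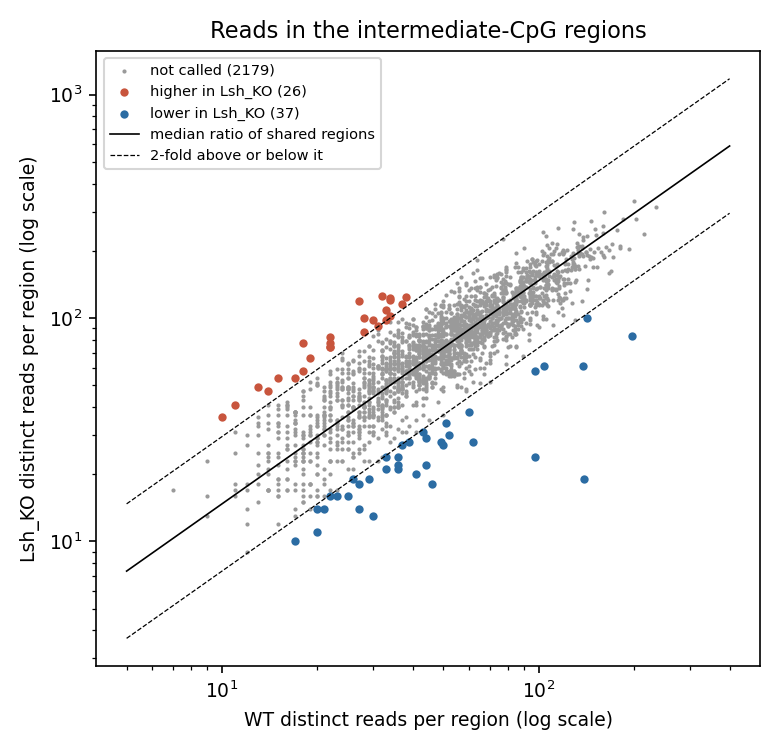
Distinct reads per region in WT (horizontal axis) and Lsh_KO (vertical axis), both on log scales, for the 2242 regions. The solid line is the median ratio of all shared regions and the dashed lines lie 2-fold above and below it; 26 regions are called higher and 37 lower.

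In all, 26 regions (1.16%) were called higher in Lsh_KO and 37 (1.65%) were called lower. Among all shared regions of sufficient depth, the shares called were 0.780% higher, 1.83% lower and 2.61% in either direction. Over all merged regions, which include those marked in 1 line only, 2.59% were called higher, 4.36% lower and 6.95% in either direction. The intermediate regions could not enter with the mark in 1 line only, so their shares are read against the shared regions, which include them. The share called lower was near that of the shared regions. The share called higher, 1.16%, lay above their 0.780%, a difference that rests on 26 regions and was not tested. Regions under 0.4 had 2.18% higher and 4.91% lower, those of 0.6 to under 0.8 had 0.544% and 1.53%, and those of 0.8 or more had 0.644% and 1.503%. Scaled by total reads, 146 intermediate regions were called higher and 11 lower, so the share of higher calls was 41.3% with the median ratio and 93.0% with total reads.

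The deposited window lists counted more reads than the distinct reads, and these further reads gave a second count in the same samples. Repeats of a position and strand were not taken out of them, so they may hold copies of the reads behind the calls. They are also part of the window counts that chose the regions, so the second count is not independent support. Of the 26 higher regions, 25 had the same direction in those further reads and 12 were called higher again. All 37 lower regions had the same direction and 27 were called lower again. Across the 2242 regions, Pearson's r of the log2 ratios from the main and the further reads was 0.705. The exception in direction was Lig1, which encodes a DNA ligase of replication and repair, with 11 WT and 41 Lsh_KO reads in the main count and 21 and 23 in the further reads.

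The regions called higher in Lsh_KO held few WT reads, which the call favours by construction because it needs a high ratio. The 10 leading higher regions, ranked by the interval bound nearest to 1, held 18 to 38 WT and 77 to 126 Lsh_KO reads. Itgb8 encodes the integrin beta 8 subunit, which with the alpha v subunit activates latent TGF-beta. Its region (chromosome 12, 119681201 to 119683200) had 32 reads in WT and 126 in Lsh_KO, a difference of 2.67-fold (interval 1.80 to 4.07), and the further reads were 27 and 110. Igfbp2 encodes a secreted binding protein of insulin-like growth factors. Its region (chromosome 1, 72757801 to 72760800) had 34 reads in WT and 123 in Lsh_KO, a difference of 2.45-fold (1.67 to 3.70). Both of these differences remained at least 2-fold when the ratio was also divided by the ratio of background reads in the same 5 Mb of the chromosome.

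Efemp1, Hoxa3 and Cav2 had counts of the same size but lay where the background was also higher in Lsh_KO. Efemp1 encodes an extracellular matrix glycoprotein of the fibulin family. Its region (chromosome 11, 28753001 to 28755400) had 34 reads in WT and 120 in Lsh_KO, a difference of 2.40-fold (1.62 to 3.62). With the local background taken out its log2 ratio of 1.26 became 0.85, and it was not called. Hoxa3, a homeobox gene of anterior patterning, held 28 and 100 reads at 52141001 to 52143600 on chromosome 6, with a log2 ratio of 1.28 and 0.93 after that step. Cav2, a caveolin of plasma membrane pits, held 22 and 82 reads at 17230801 to 17232200 on chromosome 6, with 1.34 and 0.998. Neither was called after that step.

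The remaining leading higher regions were named by a noncoding RNA or not at all. Gm15270, a noncoding RNA, was matched at 24284801 to 24287000 on chromosome 10, with 38 WT and 124 Lsh_KO reads. Of the genes that RefSeq lists between a region's matched neighbours, only protein-coding ones are given here. For this region the neighbours Stx7 and Enpp1 enclose Moxd1 and Ccn2, the latter a matrix protein induced by TGF-beta. The leading region of all had no matched gene: on chromosome 1, from 171945801 to 171947800, WT had 27 reads and Lsh_KO 119, which is 2.99-fold higher (1.96 to 4.73). RefSeq lists Rgs5, Rgs4, Ccdc190, Hsd17b7 and Ddr2 between its matched neighbours. An unnamed region of chromosome 7 (118784601 to 118786200) had 18 reads in WT and 77 in Lsh_KO, a difference of 2.90-fold (1.72 to 5.15). Unnamed regions starting at 42386801 on chromosome 18 and 181766801 on chromosome 2 held 33 and 109, and 22 and 77 reads, and neither was called after the background step.

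Further down the list of 26, matched protein-coding genes beside Lig1 were Creld1, an EGF-domain protein, with 22 WT and 74 Lsh_KO reads, Tmeff2, a transmembrane protein with follistatin domains, with 28 and 87, and Tmem14a, with 17 and 54. With the local background taken out, their log2 ratios were 0.91, 0.79 and 0.70, and none of the 3 was called, whereas Lig1 still was. These and the other genes outside the 10 leading regions in each direction were picked out after their values were seen.

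**Figure D3:**
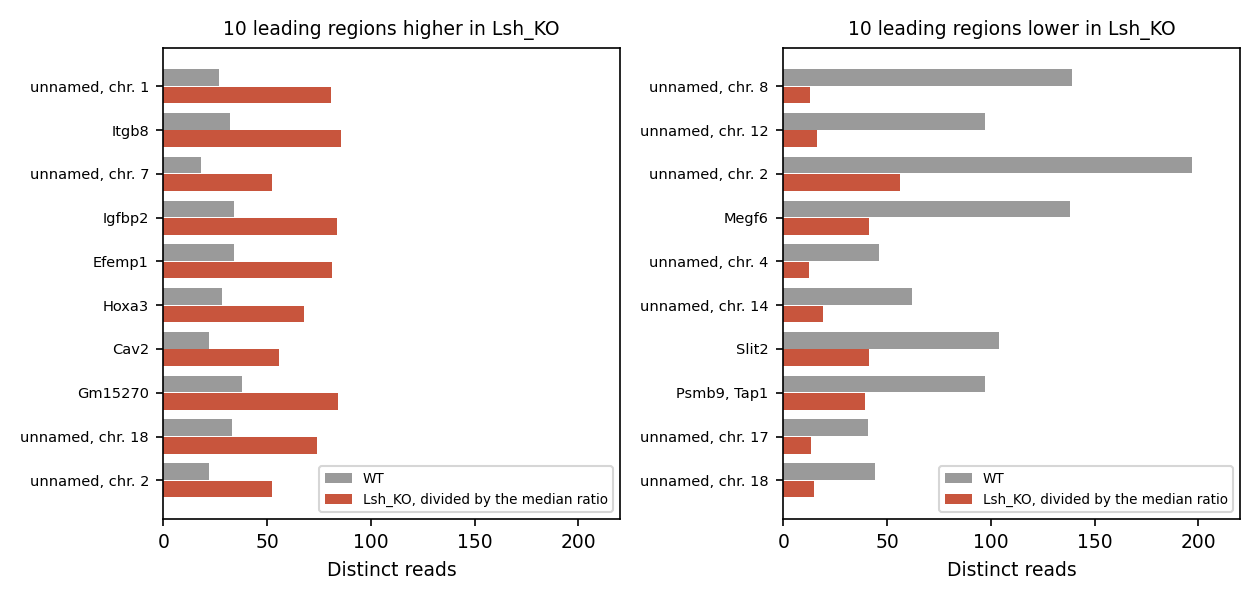
Distinct reads in the 10 leading regions called higher (left) and the 10 called lower (right) in Lsh_KO, with Lsh_KO reads divided by the median ratio of shared regions. Bars start at 0 and there is 1 library per group, so no error bar is drawn. The lower regions start from 41 to 197 WT reads and the higher ones from 18 to 38, a contrast that the calling rule itself favours.

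The regions lower in Lsh_KO included larger differences. Both libraries had to reach the same minimum of reads before the division by 1.47. On the divided scale, large gains could thus be left out of the shared regions sooner than large losses, and the part of this in the contrast was not tested. Over both libraries, the median number of reads was 138 in the 10 leading lower and 144 in the 10 leading higher regions, and 64 and 109.5 over all regions called lower and higher. The 10 leading lower ones held 41 to 197 WT and 18 to 83 Lsh_KO reads. The first, on chromosome 8 from 109399801 to 109402800, had 139 reads in WT against 19 in Lsh_KO, which is 10.8-fold lower (6.65 to 18.4), and 109 and 15 in the further reads. No promoter matched it, and RefSeq lists Smpd3, Zfp90, Cdh3, Cdh1, Tango6 and Has3 between its matched neighbours Prmt7 and Chtf8. Cdh3 and Cdh1 encode P- and E-cadherin, Has3 a hyaluronan synthase, and which of the genes the region belongs to was not settled here.

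Some unnamed lower regions had a single protein-coding gene listed between their matched neighbours. The region of chromosome 12 (31660001 to 31663400) had 97 reads in WT against 24 in Lsh_KO, which is 5.96-fold lower (3.78 to 9.74), and Fam110c is the only protein-coding gene RefSeq lists there. That of chromosome 2 (167229401 to 167233000) had 197 against 83, which is 3.50-fold lower (2.69 to 4.58), and the only such gene is Snai1, which encodes a repressor of E-cadherin in the epithelial to mesenchymal transition. A smaller region of this kind on chromosome 17 (73854201 to 73855200), with 41 against 20 reads, was 3.02-fold lower (1.73 to 5.44), with Xdh, xanthine dehydrogenase, as the only such gene.

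Named regions among the leading lower ones were Megf6, Slit2 and the pair Psmb9 and Tap1. Megf6, a protein of many EGF repeats, had 138 reads in WT against 61 in Lsh_KO (chromosome 4, 153013801 to 153016800), which is 3.33-fold lower (2.45 to 4.58), and 130 and 35 in the further reads. Slit2, a secreted ligand of Robo receptors, held 104 and 61 reads at 48271001 to 48274800 on chromosome 5, 2.51-fold lower (1.81 to 3.51). Psmb9, a subunit of the immunoproteasome, and Tap1, a peptide transporter of antigen presentation, share a promoter between them. Their region at 33797001 to 33799000 on chromosome 17 held 97 and 58 reads, 2.46-fold lower (1.76 to 3.47). The further reads there were 73 and 55, which is 1.94-fold lower (1.35 to 2.80) and under the 2-fold threshold. Scaled by total reads, the log2 ratios of Slit2 and of Psmb9 and Tap1 were -0.94 and -0.92, and neither was called.

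The remaining leading lower regions, unnamed, were smaller. They started at 13712001 on chromosome 4 with 46 WT and 18 Lsh_KO reads, at 18971001 on chromosome 14 with 62 and 28, and at 42076601 on chromosome 18 with 44 and 22. The last was 2.95-fold lower on a chromosome where background reads were higher in Lsh_KO. Outside the leading 10, Cyp26a1, an enzyme that degrades retinoic acid, held 30 and 13 reads, a call that held under each other scaling. Rapgef3, an exchange factor activated by cyclic AMP, held 142 and 100, but its log2 ratio of -1.07 was -0.84 with the local background, -0.99 with GC bins and -0.68 with total reads, and it was called under none of these. Mfsd2a, a transporter of lysophospholipids, held 52 and 30, and Adam19, a membrane metalloprotease, held 43 and 31, and neither was called with total reads.

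Called regions were more often unnamed in the lower direction. Off chromosome 18, 12 of the 1348 named regions were called higher and 13 lower, and 11 of the 843 unnamed ones were called higher and 23 lower. The shares called lower were 0.964% and 2.73%. The WT median was 43 reads in unnamed and 55 in named regions. Lower calls also gathered at low counts: regions with fewer than 40 reads in both libraries together had a median log2 ratio of -0.34, with 0 of 73 called higher and 6 lower. At 80 to under 160 reads, 18 of 1001 were called higher and 7 lower. Each library had to reach the same minimum of reads, and ratios were then divided by 1.47. Regions near that minimum in both libraries can therefore lean below 0 through the selection. The regions with fewer than 40 reads also had a median GC content of 60% and a median width of 600 bp. Over all the regions these were 57.7% and 1600 bp. The part of each was not tested, and the low-count values are not taken as a finding about the lines.

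Of the 10 regions with the most reads, all but the first were matched to genes, and none was called. The first, at 152426801 to 152430600 on chromosome 2, was unnamed and had 234 reads in WT and 314 in Lsh_KO. RefSeq lists Id1, an inhibitor of basic helix-loop-helix factors, and Cox4i2, a subunit of cytochrome oxidase, between its matched neighbours. Vim, which encodes the intermediate filament vimentin of mesenchymal cells, held 199 and 334 reads, a ratio of 1.14 (0.95 to 1.36). Hjurp, the chaperone that loads the centromeric histone CENP-A, held 203 and 279, but 34.5% of its reads carried a mismatch, against a median of 16.1% over the regions.

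The other 7 held 146 to 215 WT reads. Igfbp4, a further binding protein of insulin-like growth factors, held 185 and 277, a ratio of 1.02 (0.84 to 1.23). Aak1, a kinase of clathrin-coated pits, held 160 and 297, and P4hb, a protein disulfide isomerase that is also a subunit of collagen prolyl hydroxylase, 146 and 271. Slc39a7, a zinc transporter, and Rxrb, a retinoid X receptor, shared a region of 215 and 238 reads, a ratio of 0.75 (0.62 to 0.91). Lrsam1 and Rpl12 shared one of 177 and 249, Phf12 held 159 and 259, and Emg1 and Phb2 shared one of 150 and 251.

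Before reading gene groups, markers of cell types were checked by reads that match their promoters. The 6 fibroblast markers in the table had 11 WT and 22 Lsh_KO promoter reads in all, and 3 of the 6 were in shared regions. Of these 3, Prrx1, a homeobox gene of limb and craniofacial mesenchyme, was an intermediate region of 103 and 192 reads. Col5a1 and Twist1 were in regions of 0.6 to under 0.8. Col1a2 and Col3a1, also fibroblast genes, had at most 2 promoter reads per library and Pdgfra had 0. The 5 leukocyte markers had 0 WT and 1 Lsh_KO reads and the 5 skeletal muscle markers 1 and 0, with 4 genes of each list at 0 in both libraries. Epithelial markers had 1 and 8, all 8 from Krt18. The endothelial receptor Kdr, with 3 and 10, was in a shared region, as was the neural gene Syt1, an intermediate region of 32 and 38 reads. The promoter of Hells itself, in a region of 0.6 to under 0.8, had 7 WT and 6 Lsh_KO reads, which does not check the deletion because the deleted part is not given in the labels.

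Among genes of the interferon response, 1 intermediate region was called lower in Lsh_KO and none higher. Of the 13 genes of this list matched in shared regions, 7 fell in 6 intermediate regions, with a median log2 ratio of -0.57 against 0.01 over all 2242. All 6 ratios were below 0 with the median scaling, and the called region was that of Psmb9 and Tap1. The intervals of Irf9, Ifit2 and Ddx58 included no difference. Bst2, which tethers budding virus at the membrane, held 67 WT and 56 Lsh_KO reads, a log2 ratio of -0.82. B2m, the light chain of MHC class I, held 105 and 99, a log2 ratio of -0.64. Irf9, a subunit of the interferon-activated factor ISGF3, held 25 and 26, a log2 ratio of -0.50. Ifit2, an antiviral RNA-binding protein, held 46 and 57, a log2 ratio of -0.25, and Ddx58, the RNA sensor RIG-I, held 58 and 82, a log2 ratio of -0.06.

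The direction of Ifit2 and Ddx58 depended on the scaling. With total reads, Ifit2 stood at 0.13 and Ddx58 at 0.32, and with the local background Ddx58 stood at 0.10. In the further reads, the ratio of Ddx58 was 1.16. Scaling within bins of GC content gave the 6 regions a median of -0.69. Over all 12 shared regions of this list the median was -0.73, with 1 above 0.

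Ribosomal protein genes, which are expressed in all cells, had 10 of their 39 shared-region genes among the intermediate regions. Their median log2 ratio was 0.19, 7 of the 10 were above 0 and none was called. Rps21 was the highest, with 65 WT and 151 Lsh_KO reads and a log2 ratio of 0.66, and Rpl10a the lowest, with 125 and 132 and a log2 ratio of -0.48. With total reads 9 of the 10 were above 0, and with GC bins 6 were, with a median of 0.08. Over all 39 shared regions of the list the median was 0.16.

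Extracellular matrix genes had 4 of 12 shared-region genes here, with a median log2 ratio of -0.25, or -0.37 with GC bins, and none called. Mmp14, a membrane-bound collagenase, held 180 WT and 206 Lsh_KO reads, a log2 ratio of -0.36. Fbln2, a fibulin of elastic fibres, held 142 and 135, a log2 ratio of -0.63, and Timp2, a metalloprotease inhibitor, 107 and 182, a log2 ratio of 0.21. Fbln5, also a fibulin, held 24 and 32. With total reads Mmp14 and Fbln5 were above 0, at 0.02 and 0.24, and Fbln2 stood at -0.25.

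Contractile and cytoskeletal genes had 4 of 13, with a median of -0.09, or -0.02 with GC bins, and none called. Beside Vim they were Cnn2, a calponin, with 110 WT and 136 Lsh_KO reads, Tpm2, a tropomyosin, with 84 and 89, and Tagln2, a transgelin, with 77 and 119. Their log2 ratios were -0.25, -0.48 and 0.07, and with total reads that of Cnn2 was 0.13.

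The other lists held 1 or 2 intermediate genes each. Ptgs2, the inducible cyclooxygenase, was the only 1 of 4 chemokine and prostaglandin genes, with 50 WT and 79 Lsh_KO reads. Fosb, a subunit of AP-1, was the only 1 of 9 immediate early genes, with 42 and 54, and the histone gene H3c8 the only 1 of 5, with 34 and 45. Of 15 housekeeping genes of metabolism and stress, 2 were here: Eno1, enolase, with 135 and 195 and Tpi1, triosephosphate isomerase, with 89 and 165. None of these was called. Over all lists, these counts compare with 1599 of 7623 genes (21.0%) matched in shared regions that fell in the intermediate class.

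Genes of the germline whose promoters are methylated in somatic cells were not matched to any marked region. Of 25 such genes in the table, 0 matched a region of either library. Their promoters matched 5 WT and 9 Lsh_KO reads in all, and 14 of the 25 had none in both libraries. Mov10l1, an RNA helicase of the piRNA pathway, had 4 Lsh_KO reads and 0 WT reads. At this depth a count of 0 allows up to 3 reads per promoter, so a low level in either line was not detectable. The match also leaves out many genes of other lists. Of those in the table, 39 of 58 ribosomal protein genes and 15 of 24 housekeeping genes matched a region. The lack of a match therefore does not show that the mark was absent.

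The ratio followed the GC content of the reads. The 102 regions under 50% GC had a median log2 ratio of 0.30, the 454 of 50 to 55% had 0.18, the 1074 of 55 to 60% had 0.00, the 560 of 60 to 65% had -0.12 and the 52 of 65% or more had -0.15. All shared regions showed the same order, from 0.26 to -0.20. Reads outside every region had a mean GC content of 48.3% in WT and 47.1% in Lsh_KO, and reads inside the intermediate regions had 58.2% and 56.8%. The mean GC content of the Lsh_KO reads was thus lower in both places. When ratios were divided by the median of shared regions in the same GC bin, a scaling added after seeing the data, 21 of the 26 higher calls and 32 of the 37 lower calls were kept.

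**Figure D4:**
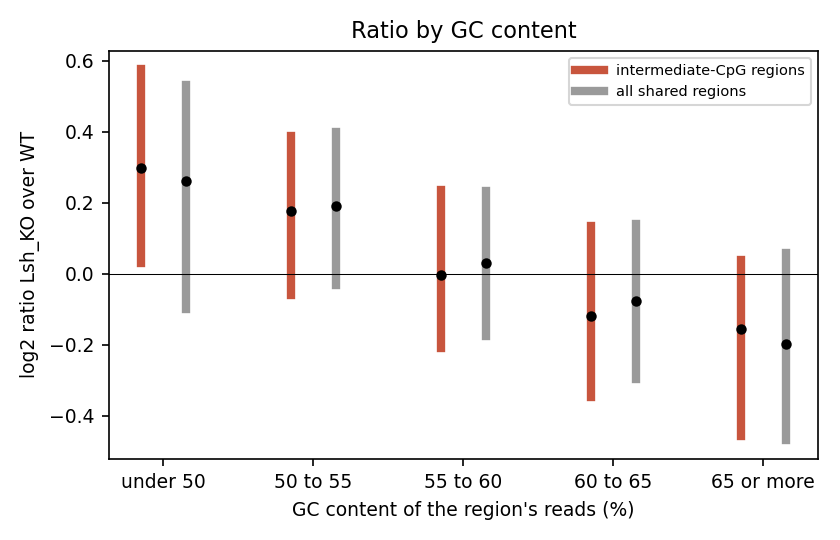
log2 ratio of Lsh_KO over WT reads (vertical axis) by the GC content of the region's reads in percent (horizontal axis), for the intermediate regions and for all shared regions. Points are medians and bars run from the lower to the upper quartile; the intermediate median goes from 0.30 under 50% to -0.15 at 65% or more.

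CpG content within the range moved the ratio less. From 0.40 to 0.60 in steps of 0.05, the median log2 ratios were -0.07, 0.00, 0.04 and 0.03, over 280, 451, 639 and 872 regions. The number called higher was 7, 4, 7 and 8, and the number called lower 7, 5, 13 and 12.

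Chromosomes differed, and the regions followed the background reads of their chromosome. On chromosome 18 the median log2 ratio of the 51 regions was 0.52, with 43 above 0, and reads outside regions had a log2 ratio of 0.51. On chromosome 16 the 59 regions had a median of -0.24 and reads outside regions -0.44. Over the 19 chromosomes Pearson's r between the medians and the background was 0.960 and Spearman's rho was 0.946, and without chromosomes 16 and 18 r was 0.940. The points share both libraries, so this is a description. With the background ratio of each 5 Mb taken out, 14 of the 26 higher calls and 27 of the 37 lower calls were kept. All 10 leading lower regions were kept and 5 of the 10 leading higher ones.

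**Figure D5:**
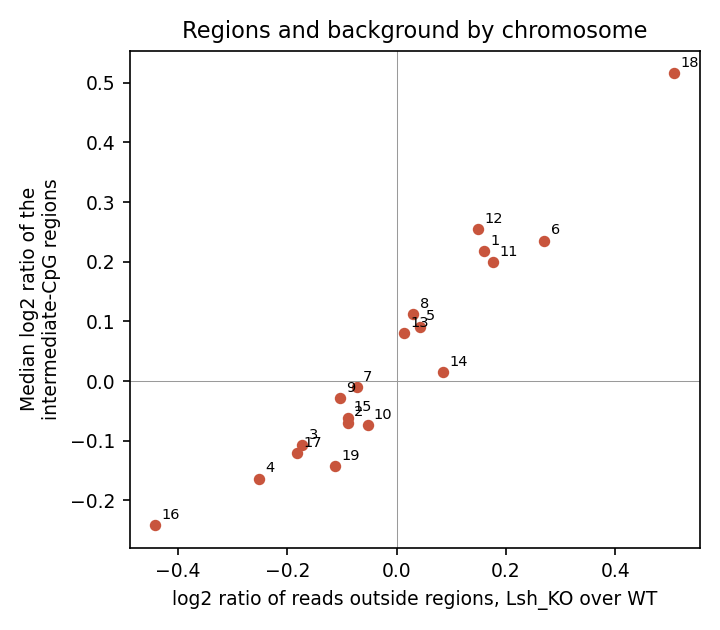
Median log2 ratio of Lsh_KO over WT for the intermediate regions of each chromosome (vertical axis) against the log2 ratio of reads outside regions on that chromosome (horizontal axis). Each point is 1 of 19 chromosomes, labelled by number; chromosome 18 lies highest at 0.52 and chromosome 16 lowest at -0.24.

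The share of shared regions under 4000 bp that were intermediate ran from 16.6% on chromosome 12 to 29.2% on chromosome 7. Stretches as drawn in each library were wider in Lsh_KO in 1348 regions (60.1%), wider in WT in 333 (14.9%) and equal in 561, with medians of 1400 and 1200 bp. The drawing used a fixed minimum of reads per window, and the Lsh_KO library held more reads in these regions. Depth can therefore change the width as drawn, and its part in this difference was not tested.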

How the data were processed

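H3K4me3 was measured by sequencing of nuclease-cut, precipitated chromatin in 1 WT and 1 Lsh_KO library. The authors deposited lists of aligned 25-base reads with an alignment score, and whole-number counts of reads per window of 200 bp. Positions are on mm8, per the submitters' processing notes; the aligner and the rule for the counts are not given in the sources used here. The deposited score was read but not used as a filter. The lists held 2869399 WT and 3428628 Lsh_KO aligned reads, of which 13.9% and 18.6% repeated a position and strand, leaving 2471782 and 2790389 distinct reads. Inside the intermediate regions 30.9% and 37.0% were repeats. Moved by 100 bp, the distinct reads left 0 windows of the deposited counts below the rebuilt ones, and the window lists held a further 1598335 and 1759904 reads, whose origin the sources do not give.

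From these, regions were drawn and distinct reads, moved 75 bp, were counted in them. Simulated read numbers served to test how regions are called higher or lower. Gene matches were checked only against the chromosome that RefSeq gives. The regions named are the 10 leading higher, 10 leading lower and 10 most read, and genes of set lists. Some further called regions were named after their values were seen. The regions and lists were chosen with earlier results of these data known. Genes came from RefSeq promoter sequences (GRCm38.p6), without chromosome 18. No mm8 genome was used. Alternatives varied scaling, repeats, mismatches, read shift, thresholds and chromosomes. The tools were scipy 1.17.1, numpy 2.4.6, matplotlib 3.10.9 and pandas 2.3.3, under Python 3.11.15.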

Additional observations from a re-analysis of the deposited data

How the results depend on the processing

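Over 13 alternative settings, 32 of 42 recomputed values stayed within 1.5 times the main count or, for the median log2 ratio, within its binomial order-statistic 95% interval over regions, -0.0092 to 0.035. Scaled by total distinct reads, 146 regions were called higher and 11 lower, with a median log2 ratio of 0.40. With every read kept, 43 were called higher. With CpG o/e of 0.45 to under 0.55, 1090 regions remained, with 11 higher and 18 lower. At a threshold of 1.5-fold, 121 were higher and 98 lower, so here and with total reads higher calls outnumbered lower ones. Scaling in GC bins, added after seeing the data, turned the median log2 ratio from 0.014 to -0.028. The causes were not tested, except that a narrower range and a lower threshold change the counts by construction. No paired analysis was possible because each group had 1 library. Depth limits single regions: the median region held 50 WT reads. The further reads, which are not independent of the choice of regions, called 12 of the 26 higher and 27 of the 37 lower regions again.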
